A study of Mus musculus with 2 samples.

Results

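DNase-seq marks the stretches of chromatin that the nuclease DNase I can cut, such as promoters and enhancers, where bound proteins keep the DNA open. The regions described here are the accessible regions made of repeat sequence, called repeat peaks. A repeat peak is an autosomal peak of the shorter of the 2 deposited lists of a library in which at least 80% of the bases are in lower case, that is soft-masked as repeats, in the mm10 mouse genome. There were 472 repeat peaks among 67531 autosomal peaks in mouse 1 and 326 among 67510 in mouse 2, or 0.699% and 0.483% of the peaks (mean 0.591% ± 0.153, SD, n = 2 mice). Merging all overlapping autosomal peaks gave 81510 regions, of which 703 held a repeat peak.

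Both libraries came from left cerebral cortex of female B6CASTF1/J F1 mice, which carry 1 genome copy each from B6 and CAST, at an age of 36 days. Each mouse gave 1 library, and the labels number the animals separately under a shared donor entry. The mice form 1 group with no treatment and no other genotype, so the values of both are set side by side and nothing was tested: an exact sign-flip test over 2 mice cannot give a p below 0.5. The reference holds the sequence of the B6 parent's genome only, so copies that the CAST genome has gained or lost are not seen. Promoter peaks in both mice were found at Slc17a7, Neurod6, Tbr1 and Neurod2, markers of cortical excitatory neurons, and at 4 of 5 markers of astrocytes, 2 of 5 of interneurons, 1 of 5 each of oligodendrocytes, microglia, endothelium, skeletal muscle and blood, and 0 of 5 of liver. Peak heights are the authors' values, which below 1 moved in whole steps (tolerance 0.05 of a step) of 0.00608 in mouse 1 and 0.00561 in mouse 2. Depth in reads is unknown.

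Much of the mouse genome derives from transposable elements. Short interspersed elements such as B1 and B2 are copied from small RNA genes and spread by the enzymes of LINE-1, a long element that carries its own promoter and reading frames. Retrovirus-like elements start and end in long terminal repeats that act as promoters, and satellites are short units repeated head to tail, mostly near centromeres. In most cells DNA methylation and repressive histone marks keep such sequence closed, and some copies are known to serve as sites for CTCF, the protein that anchors chromatin loops, or as promoters of nearby genes.

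The sequences below stand for the kinds of repeat that the values turn on. All are GRCm38 (mm10) sequence in the 5′ to 3′ direction of the strand named. The first 3 are the regions at the start of chromosome 9 with a repeat peak in both mice, and capitals mark matches to the motif of YY1, AANATGGCG, on either strand.
chr9:3002037-3002240 (plus strand): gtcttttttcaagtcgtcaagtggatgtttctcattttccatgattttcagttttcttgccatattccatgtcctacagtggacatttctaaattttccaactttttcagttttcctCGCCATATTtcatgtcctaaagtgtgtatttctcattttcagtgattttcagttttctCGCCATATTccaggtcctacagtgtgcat
chr9:3006800-3006920 (plus strand): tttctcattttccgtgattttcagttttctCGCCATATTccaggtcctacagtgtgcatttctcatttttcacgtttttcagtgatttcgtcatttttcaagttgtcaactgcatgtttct
chr9:3024313-3024460 (plus strand): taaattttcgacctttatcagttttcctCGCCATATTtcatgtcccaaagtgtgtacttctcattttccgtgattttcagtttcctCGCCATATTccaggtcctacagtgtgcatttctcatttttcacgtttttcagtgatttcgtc

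The next 4 lie upstream of long stop-free reading frames, as 2 pairs of related sequence, each on the strand of its frame. Capitals mark CpG dinucleotides.
chr14:93214881-93215120 (minus strand): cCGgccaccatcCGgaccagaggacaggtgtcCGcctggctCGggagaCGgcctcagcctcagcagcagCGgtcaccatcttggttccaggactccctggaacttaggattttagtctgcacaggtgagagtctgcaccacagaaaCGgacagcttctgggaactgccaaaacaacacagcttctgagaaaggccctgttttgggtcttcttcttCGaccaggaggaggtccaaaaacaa
chr8:5241961-5242220 (plus strand): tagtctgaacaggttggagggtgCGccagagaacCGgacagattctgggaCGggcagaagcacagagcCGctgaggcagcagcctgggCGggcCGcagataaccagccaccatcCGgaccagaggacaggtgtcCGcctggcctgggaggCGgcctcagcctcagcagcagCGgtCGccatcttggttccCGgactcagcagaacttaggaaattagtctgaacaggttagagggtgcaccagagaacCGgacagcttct
chr10:99339390-99339516 (plus strand): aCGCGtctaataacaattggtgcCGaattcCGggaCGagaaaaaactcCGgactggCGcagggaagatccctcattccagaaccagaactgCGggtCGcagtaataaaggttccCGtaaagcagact
chr4:143988221-143988420 (minus strand): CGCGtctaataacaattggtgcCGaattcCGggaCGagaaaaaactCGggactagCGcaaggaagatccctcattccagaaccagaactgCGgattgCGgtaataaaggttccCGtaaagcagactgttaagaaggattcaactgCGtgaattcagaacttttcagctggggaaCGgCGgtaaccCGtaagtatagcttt

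The last 5 lie in short masked runs. The first 3 of them belong to the largest sequence family and the fourth is the highest repeat region away from tandem sequence. In these 4 the capitals mark the best match to the CTCF consensus, exact in the first 2 and with 1 mismatch in the other two. The fifth is similar to the annotated B1 element, with CpG in capitals.
chr6:115847101-115847243 (plus strand, in Mbd4): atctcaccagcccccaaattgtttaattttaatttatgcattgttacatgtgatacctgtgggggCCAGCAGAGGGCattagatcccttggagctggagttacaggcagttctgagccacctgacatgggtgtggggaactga
chr17:84641981-84642180 (plus strand, in Dync2li1): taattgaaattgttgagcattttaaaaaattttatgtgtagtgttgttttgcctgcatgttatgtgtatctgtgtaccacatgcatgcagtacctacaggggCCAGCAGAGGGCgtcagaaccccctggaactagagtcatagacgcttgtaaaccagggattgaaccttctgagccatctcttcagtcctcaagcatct
chr15:98710521-98710720 (minus strand, in Ccdc65): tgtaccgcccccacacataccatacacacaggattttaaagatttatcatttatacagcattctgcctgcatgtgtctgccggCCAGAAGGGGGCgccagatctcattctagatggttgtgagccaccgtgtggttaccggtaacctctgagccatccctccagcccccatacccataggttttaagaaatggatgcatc
chr2:32487201-32487400 (minus strand, near Slc25a25): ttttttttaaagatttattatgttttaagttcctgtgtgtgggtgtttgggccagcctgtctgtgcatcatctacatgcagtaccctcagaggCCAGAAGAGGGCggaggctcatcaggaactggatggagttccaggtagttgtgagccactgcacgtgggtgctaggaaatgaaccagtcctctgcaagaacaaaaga
chr13:34874841-34875040 (plus strand, upstream of Prpf4b): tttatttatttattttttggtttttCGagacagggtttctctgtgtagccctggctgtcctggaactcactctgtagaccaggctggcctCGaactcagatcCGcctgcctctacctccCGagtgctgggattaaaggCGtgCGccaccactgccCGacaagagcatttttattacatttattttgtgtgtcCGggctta

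Repeat sequence was rare among accessible regions and low where it occurred. Lower-case bases made up 33.5% of the autosomes but 7.31% of the bases in autosomal peaks of mouse 1 and 7.15% in mouse 2. Cut into 150 bp tiles, 17.0% of the autosomes met the rule of at least 80% masked bases. The median height of repeat peaks was 0.450 in mouse 1, where all autosomal peaks had a median of 1.19, and 0.454 in mouse 2, where it was 0.914. Ranked within its own library (0 lowest, 100 highest), the median repeat peak stood at percentile 9.75 in mouse 1 and 11.8 in mouse 2 (mean 10.8 ± 1.44, SD, n = 2 mice). The lowest 20% of heights (the first of 5 equal bins of each list) held 298 of 472 repeat peaks in mouse 1 and 207 of 326 in mouse 2. The top 20% held 3 and 7.

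**Figure D1:**
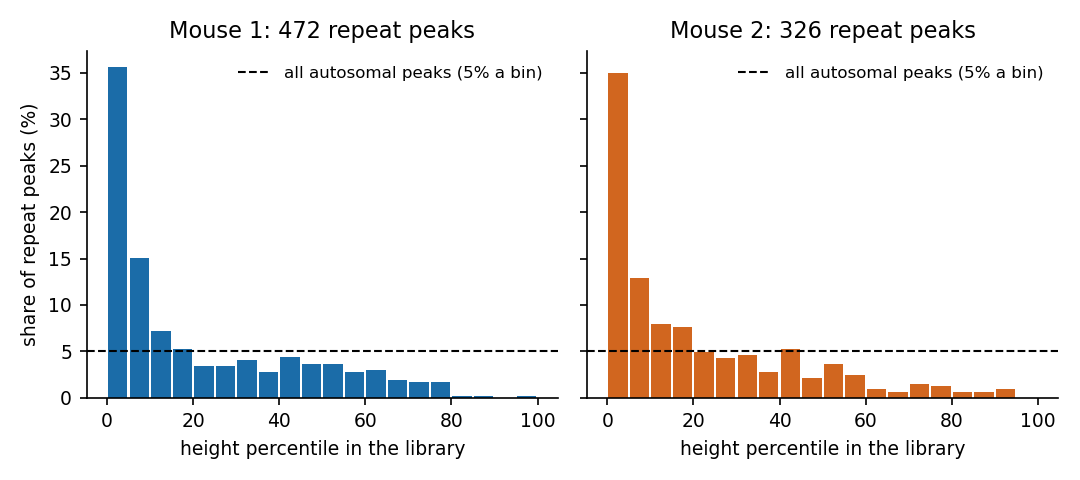
Share of the repeat peaks of each mouse (y axis, %) by the rank of their height among all autosomal peaks of that library (x axis, percentile, bins of 5). The dashed line is the share that all autosomal peaks have in each bin, and the lowest bins hold most of the repeat peaks, with medians at 9.75 in mouse 1 and 11.8 in mouse 2.

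Around the threshold the values moved gradually. Peaks with 75 to 80% masked bases had a median height of 0.660 in mouse 1 (118 peaks) and 0.544 in mouse 2 (83 peaks), and those with 80 to 85% had 0.641 (108 peaks) and 0.513 (72 peaks). Peaks masked over every base had 0.322 (160 peaks) and 0.421 (125 peaks). Repeat peaks were also narrower than the rest, with a median width of 120 bp in mouse 1 and 117 bp in mouse 2 beside 200 and 202 bp over all autosomal peaks.

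In base composition repeat peaks lay between the genome's repeats and the other peaks. Their median GC content was 50.4% in mouse 1 and 50% in mouse 2, beside 55.6% and 54.4% over all peaks and a mean of 42.3% over repeat tiles. Their median CpG content was 1.0 and 0.909 per 100 bp, beside 2.80 and 2.52 over all peaks and a mean of 0.7945 over repeat tiles. By the share of their 31-mers that occur once in the genome, the median repeat peak was 71.6% unique in mouse 1 and 68.8% in mouse 2. Over all peaks that median was 100%. All 31-mers were unique in 81 repeat peaks of mouse 1 and 66 of mouse 2, and none was in 46 and 34, so most of the peaks held some sequence found once in the reference.

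By position, repeat peaks were mostly in introns and between genes. The peak centre lay within 1 kb of an annotated transcript start in 15.9% of them in mouse 1 (all autosomal peaks: 39.9%) and in 13.5% in mouse 2 (all: 38.1%). Introns held 41.3% and 42.3%, intergenic sequence 40.7% and 43.3%, and exons 2.12% and 0.920%. Peaks that are not repeat were also weighted to the share of repeat peaks in each of the 5 height bins. Their promoter share would then be 26.5% in mouse 1 and 24.5% in mouse 2, with heights inside a bin not matched. In mouse 1 the share of peaks in repeat ran from 0.258% on chromosome 19 to 0.968% on chromosome 16. In mouse 2 the range ran from 0.246% on chromosome 12 to 0.748% on chromosome 4. In bins of 1 Mb, the start of chromosome 9 held the most repeat regions (12), followed by the bin from 20 Mb of chromosome 8 (8 regions, 5 with a peak in both mice). The bin from 99 Mb of chromosome 7 held 7, all in mouse 1 only and none above a height of 0.237.

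Repeat peaks were less often found in the other animal than peaks in general. Of the 472 in mouse 1, 142 (30.1%) overlapped a peak of mouse 2 by at least 1 bp, where 74.6% of all autosomal peaks did. Of the 326 in mouse 2, 123 (37.7%) overlapped a peak of mouse 1, where 74.2% of all did. Repeat peaks were low, so the same was computed at their heights: given the heights of the repeat peaks, the other peaks would be met at 49.6% in mouse 1 and 48.8% in mouse 2. In the lowest bin 45 of 298 repeat peaks of mouse 1 were met (15.1%, other peaks 32.4%), and in mouse 2 43 of 207 (20.8%, other peaks 33.9%). In bin 4 26 of 39 were met in mouse 1 (66.7%, other peaks 94.2%) and 12 of 14 in mouse 2 (85.7%, other peaks 95.6%). All 3 and all 7 of the top bin were met.

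**Figure D2:**
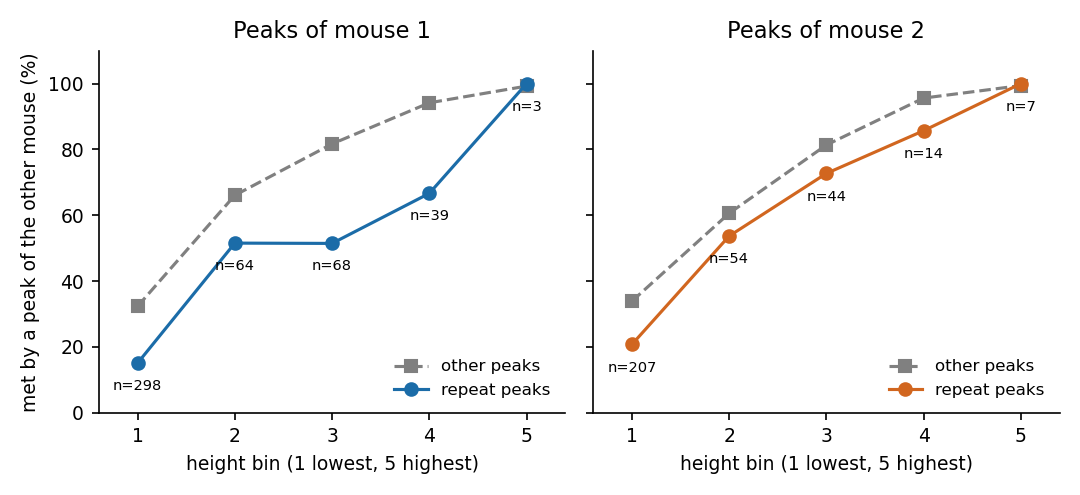
Share of peaks that overlap a peak of the other mouse (y axis, %) in 5 equal bins of height (x axis, lowest to highest), for repeat peaks (circles, with their number) and other autosomal peaks (squares), in each mouse. The repeat peaks lie below the other peaks in bins 1 to 4 of both mice, for example 15.1% against 32.4% in the lowest bin of mouse 1. Heights inside a bin are not matched.

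Most repeat peaks without a partner were absent from the longer list of the other library too. Of 330 unmet repeat peaks of mouse 1, 84 (25.5%) overlapped the longer list of mouse 2, where 44.4% of all unmet peaks did, and of 203 in mouse 2, 63 (31.03%) overlapped the longer list of mouse 1 (all unmet peaks: 56.9%). A position with a cut rate under a false discovery rate of 0.05 in the other mouse was held by 112 of the 330 (33.9%, all unmet peaks 59.9%) and by 75 of the 203 (36.9%, all unmet peaks 68.8%). As merged regions, 171 of 703 held a peak in both mice (24.3%, all regions 58.5%), 330 in mouse 1 only and 202 in mouse 2 only. A repeat peak in both mice was found in 95.

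Footprints are short stretches inside a peak where cuts are depleted, as under a bound protein. At least 1 deposited footprint overlapped 62.5% of repeat peaks in mouse 1 (all autosomal peaks: 86.7%) and 62.3% in mouse 2 (all: 87.1%). The gap was in the lowest bin, with 43.96% of repeat peaks against 61.9% of other peaks in mouse 1 and 44.4% against 64.5% in mouse 2. In bin 2 the shares were 85.9% against 82.9% in mouse 1 and 87.0% against 83.2% in mouse 2, and in bin 3 98.5% against 90.3% and 97.7% against 90.6%. Above the lowest bin the repeat peaks of both mice thus carried footprints at least as often as other peaks of the same bin. Heights inside a bin were not matched here either.

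The repeat regions were grouped by sequence with blastn. Joining regions at 80% identity or more over at least 50% of the shorter one put 546 of 703 (77.7%) into 26 groups, but chained unlike elements together: the largest held 375 regions. Asking for 50% of the longer region with low-complexity sequence filtered, a setting chosen after seeing the data, put 317 (45.1%) into 32 families, and these are described below. The largest had 143 regions, the next had 45 and the third had 30.

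The largest family stood higher than the other repeat regions. Its most widely shared 16-base stretch, ATCTGATGCCCTCTTC on either strand, was in 23 of its 143 regions and occurs 22770 times on the autosomes. Of its members 1 was similar to the annotated B1 element, and the family has no name in the annotation used. Its median height was 0.8999 in mouse 1 (percentile 36.0) and 0.651 in mouse 2 (percentile 29.4), against 0.389 and 0.454 for repeat regions outside it. Its copies were mostly unique (median 84.6% of 31-mers), and 82.5% of the regions carried a footprint. A peak was present in both mice at 42 of the 143 (29.4%), in mouse 1 only at 83 and in mouse 2 only at 18. Of its regions with a peak in 1 mouse, 82.2% were thus in mouse 1. Over repeat regions outside the family this share was 57.3%, with 247 in mouse 1 only and 184 in mouse 2 only. Over regions that are not repeat this was 49.4%, with 16461 in mouse 1 only and 16826 in mouse 2 only. Among those with an exact CTCF match it was 75.8%, with 668 in mouse 1 only and 213 in mouse 2 only. Within the family it was 87.9% for regions with a CTCF match of up to 1 mismatch (51 and 7). For family regions without such a match it was 74.4% (32 and 11).

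CTCF sites were searched with a consensus of its core motif. Within the central 150 bp, an exact match to the CTCF consensus on either strand was found in 11 of 472 repeat peaks of mouse 1 (2.33%, all autosomal peaks 6.67%) and in 7 of 326 of mouse 2 (2.15%, all 5.9%), beside 0.0288% of repeat tiles and 0.0707% of all tiles. With 1 mismatch allowed, a setting chosen after seeing the data, the order turned in mouse 1 and the shares were close in mouse 2. A match was held by 126 repeat peaks of mouse 1 (26.7%, all 18.7%) and 58 of mouse 2 (17.8%, all 16.1%). It was in 2.06% of repeat tiles and 1.17% of all tiles. In the largest family 92 of 143 regions (64.3%) held such a match and 53 the E-box CAGATG. Outside that family such CTCF matches were less frequent, with 52 among the 386 regions in no family (13.5%). The families of 45 and 30 regions held 1 each. Of the 152 repeat regions with a match, 60 had a peak in both mice (39.5%), and of the 551 without, 111 (20.1%).

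Repeat peaks with such a CTCF match were the taller ones. Their median height was 0.991 in mouse 1 and 0.693 in mouse 2, against 0.298 and 0.401 for repeat peaks without a match. Other peaks showed the same order, with 1.89 and 1.14 with a match and 1.08 and 0.875 without. Footprints overlapped 120 of the 126 (95.2%, other peaks with such a match 97.9%) and 55 of the 58 (94.8%, other peaks 97.7%). The exact matches themselves were covered by a footprint in 11 of 11 repeat peaks of mouse 1 and 5 of 7 of mouse 2, and in 98.2% and 97.2% of other peaks with a match.

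Heights were compared between the mice as log2 ratios of mouse 2 over mouse 1, centred by subtracting the median of all 44523 regions with 1 peak per mouse, -0.43. The ratios spread more at the 163 repeat regions with a ratio (SD 0.587) than over all regions (SD 0.478), and leaving out the 3 at the start of chromosome 9 gave 0.550. The largest family was shifted toward mouse 1, with a median of -0.40 (quartiles -0.80 and 0.04) and 29 of 42 regions below 0. The 121 other repeat regions had a median of 0.20, with 43 below 0. All 8 repeat regions with an exact CTCF match and a peak in both mice were below 0, with a median of -0.30. Regions outside repeats with an exact CTCF match lay lower still, at a median of -0.57 over 3830 regions with 84.9% below 0, against 0.03 over 40530 regions without one. Within the largest family the median was -0.55 over 34 regions with a match of up to 1 mismatch and -0.05 over 8 without. The part of the CTCF match in the family's shift was not tested.

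**Figure D3:**
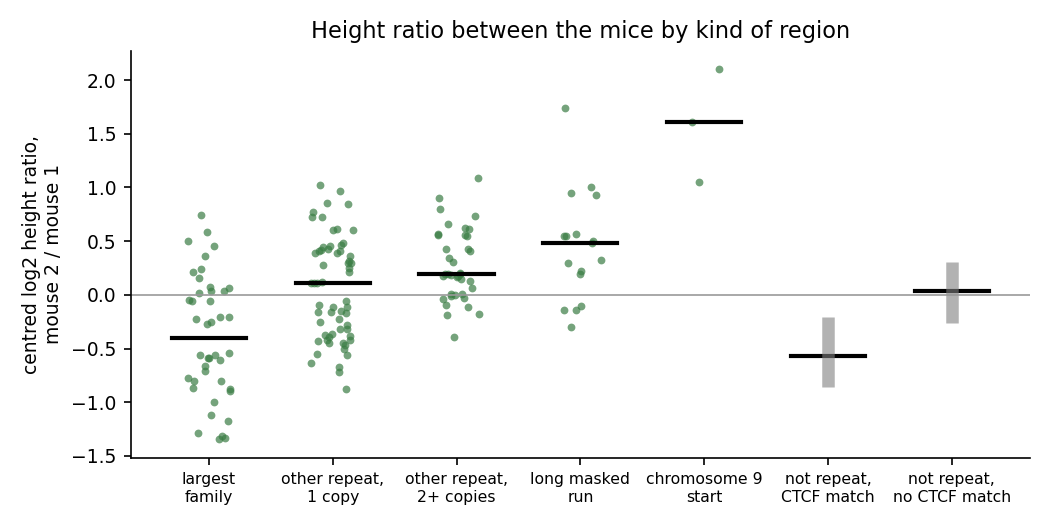
Centred log2 ratio of peak height, mouse 2 over mouse 1 (y axis), for repeat regions with 1 peak per mouse in 5 kinds (points, 1 per region, with the median as a black line) and for regions outside repeats with and without an exact CTCF match (median line, grey bar from the lower to the upper quartile). The largest family lies mostly below 0 with a median of -0.40, long masked runs lie mostly above 0 with a median of 0.48, and the 3 regions at the start of chromosome 9 lie at 1.05 to 2.10.

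Among CTCF matches in both mice, the region in an intron of Mbd4 (chr6:115847101-115847243), which encodes a DNA repair glycosylase, had heights of 1.36 in mouse 1 and 0.970 in mouse 2. That near Atp5o (chr16:91935261-91935410), a subunit gene of ATP synthase, had 1.39 and 0.886. The match in Dync2li1 (chr17:84641981-84642180), a gene of the motor that works in cilia, had 2.27 and 0.690, the widest gap of the 8 at a centred log2 ratio of -1.29. The region upstream of Tnfrsf21 (chr17:43012841-43012981), a death receptor gene, had 1.38 and 0.785. Those in introns of Stpg1, Cpd, Slc28a1 and 2610028H24Rik were between 0.687 and 1.16 in mouse 1 and between 0.488 and 0.606 in mouse 2. Mouse 1 was the higher one at each of the 8, also after centring.

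Among regions away from tandem places with a repeat peak in both mice and a mean height percentile (over the mice) above the median, those furthest toward mouse 1 included the following regions of the largest family. The region 29125 bp from the start of Csf2rb, a cytokine receptor gene (chr15:78355101-78355260), had heights of 2.33 and 0.696, a centred log2 ratio of -1.32. That in an intergenic stretch far from Nfe2l3 (chr6:51206821-51206980) had 2.11 and 0.696, a centred log2 ratio of -1.17. The 3 furthest toward mouse 2 under the same limits had ratios from 0.30 to 0.50, and each lay in sequence with several copies. The regions at the start of chromosome 9, described with tandem sequence, went further.

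The tallest repeat regions away from tandem sequence included members of several kinds. The highest, chr2:32487201-32487400, lay 35856 bp from the start of Slc25a25, a mitochondrial carrier gene, and at the start of the unclassified transcript Gm37169, and had heights of 6.58 in mouse 1 and 3.54 in mouse 2. Its height percentiles were 95.6 and 92.2, and its 31-mers were 98.2% unique. The region in an intron of Adgra1, an adhesion receptor gene (chr7:139861541-139861760), had 3.88 and 1.75. The regions of the largest family in an intron of Ccdc65, a gene of motile cilia (chr15:98710521-98710720), near Bcdin3d (chr15:99469181-99469340) and in an intron of Epb41l1 (chr2:156498041-156498200) had 3.51, 2.47 and 2.53 in mouse 1. In mouse 2 they had 1.77, 1.53 and 1.01. A further region of this rank, chr7:59711821-59712040 with 1.59 and 1.35, lay within Snhg14 beside the start of the small nucleolar RNA gene Gm22417, in sequence with 17 copies.

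Of the 84 regions that held a repeat peak in both mice away from tandem sequence, 8 lay within 1 kb of the start of a protein-coding gene. The same share is not given for all regions, so the count is not read as low or high. The tallest was within C3, the central complement gene (chr17:57219241-57219440), 631 bp from its start, with heights of 2.02 in mouse 1 and 1.10 in mouse 2. Those at Usp50, Cpsf6, an mRNA cleavage factor gene, Nbr1, an autophagy receptor gene, and Prpf4b, a splicing kinase gene, were between 0.742 and 0.991 in mouse 1 and between 0.539 and 0.785 in mouse 2. Mpp7 and the olfactory receptor gene Olfr967 had 0.456 and 0.298 in mouse 1 and 0.387 and 0.308 in mouse 2. None of these named regions reached the top bin of heights in either mouse.

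B1 elements, which descend from the 7SL RNA gene, were low and rarely shared. Of the 703 regions 61 were similar to an annotated B1 element or 7SL RNA gene, and 7 of these had a peak in both mice (11.5%), 33 in mouse 1 only and 21 in mouse 2 only. Their median height was 0.207 in mouse 1 and 0.216 in mouse 2, at percentiles 3.60 and 2.57. The family of 45 regions, 43 of them B1, had a footprint in 37.8% of regions and 1 match to CTCF with up to 1 mismatch. Beside the largest family, B1 regions thus stood lower in height and were less often present in both mice. The region upstream of Prpf4b, printed above, was 1 of 2 regions in that family with a peak in both mice, at heights of 0.772 and 0.538.

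The third family, of 30 regions, had a median of 6.5 copies of its 31-mers, lay in masked runs with a median of 498 bp and never within 1 kb of a start. Its median height was 0.207 in mouse 1 and 0.311 in mouse 2, and 3 of the 30 had a peak in both mice. Similarity to BC1, a neuronal RNA whose gene seeded another family of short elements, was found for 1 region. None was similar to mitochondrial DNA, and none overlapped an annotated tRNA, rRNA, snRNA or miRNA gene of RefSeq. Annotated RefSeq pseudogenes overlapped 5.

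Regions in the longest masked runs were more often present in both mice than those in shorter runs. For 29 of the 703 the unbroken masked run around the peak centre (gaps under 10 bp bridged) was at least 3 kb long, and 18 of these 29 had a peak in both mice (62.1%, all regions 58.5%). By contrast 4 of 31 regions in runs of 1 to 3 kb and 7 of 46 in runs of 500 to 1000 bp did. In shorter runs it was 36 of 216 (16.7%) at 200 to 500 bp, 54 of 217 (24.9%) at 100 to 200 bp and 52 of 164 (31.7%) under 100 bp. The 29 are not all separate elements: 1 run on chromosome 4 held 5 of them and 1 on chromosome 14 held 2, all with a peak in both mice. The median copy number of 31-mers in the long runs was 47. Leaving out the start of chromosome 9, the 17 with a height ratio had a median centred log2 ratio of 0.48 and 4 of them lay below 0.

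In 18 of the 29 the run held a reading frame of at least 500 codons without a stop on either strand. The peak centre was upstream of that frame in 12, inside it in 5 and downstream in 1. On chromosomes 14 and 2, 3 runs had a longest frame of exactly 1300 codons, and 3 runs on chromosomes 10, 4 and 6 had one of exactly 894 codons. A single run on chromosome 4 held 5 of the 18 regions. The longest frame, of 2563 codons on chromosome 8, lay in a tandem array with a unit of 204 bp, which is a whole number of codons.

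**Figure D4:**
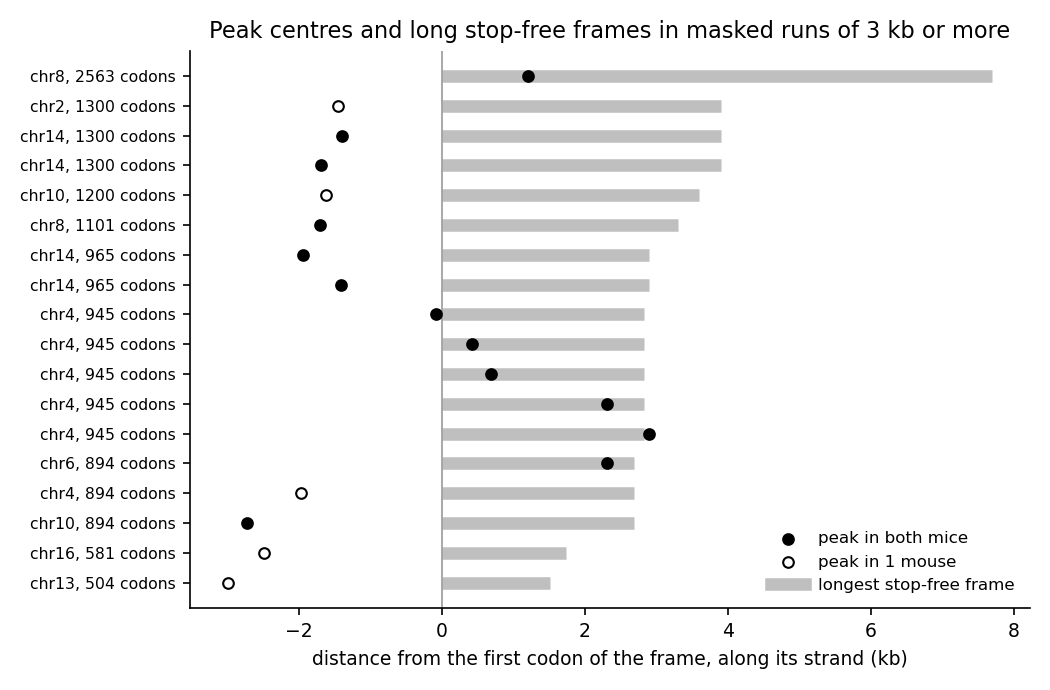
Peak centres (points, filled where both mice had a peak) relative to the first codon of the longest stop-free frame of their masked run (x axis, kb along the strand of the frame), for the 18 regions with a frame of at least 500 codons. Grey bars show the frames, and 12 of the 18 points lie left of the bar, upstream of the frame.

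A family of 5 regions had a peak in both mice at every member, each in a run of 6555 to 7494 bp and upstream of a frame of 965 to 1300 codons. LINE-1 elements of full length are known for this layout, with a promoter made of repeated units ahead of the reading frames, but no annotation used here names these copies. In an intron of Pcdh9, a cadherin gene of neurons, chr14:93214881-93215120 had heights of 2.60 in mouse 1 and 2.69 in mouse 2, at 1391 bp from the frame and with 33 copies of its median 31-mer. On the same chromosome chr14:53935861-53936260 had 2.63 and 1.59 and its neighbour chr14:53935421-53935640 had 1.45 and 1.53. The weaker members were chr14:3116101-3116360, with 0.608 and 0.527, and chr8:5241961-5242220, with 0.383 and 0.415. The smallest shift at which the peak sequence matched itself about as well as at its best was 214 or 215 bp in all 5. The identity at that shift ran from 60.8% to 92.3%. All 5 held the stretch ACACCTGTCCTCTGGT on either strand.

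A second pair, printed above, had related sequence ahead of a long frame. The region chr10:99339390-99339516, 2722 bp upstream of a frame of 894 codons, had heights of 2.47 in mouse 1 and 2.10 in mouse 2. The region chr4:143988221-143988420, 83 bp upstream of a frame of 945 codons, had 0.790 and 1.12. Their 31-mers had medians of 28 and 41 copies, none of them unique, and CpG contents of 7.87 and 7.0 per 100 bp, several times the median of repeat peaks. Retrovirus-like elements are known to carry a promoter ahead of their genes, but no annotation used here names these copies. Whether the regions of this pair act as promoters was not tested. The 4 further regions in the run on chromosome 4, near Pramef17, had peaks in both mice too, with heights from 0.255 to 0.644 in mouse 1 and from 0.6002 to 0.819 in mouse 2.

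The height ratio also differed with copy number. The 65 repeat regions with 2 or more copies and 1 peak per mouse had median heights of 0.657 in mouse 1 and 0.6002 in mouse 2. In these, mouse 2 was lower, but by less than over all regions. With peaks found in 1 mouse only counted too, the 249 repeat regions with 2 or more copies had medians of 0.353 and 0.46. Where the median 31-mer of a repeat region occurred once in the genome, the median centred log2 ratio was -0.12 over 98 regions, with 42 above 0. Outside the largest family it was 0.11 over 61 such regions, with 30 below 0. Where it occurred more often, the median was 0.22 over 65 regions, with 49 above 0, and 0.20 over 62 with 46 above 0 when the start of chromosome 9 was left out. Regions outside repeats with more than 1 copy had a median of 0.10 over 417, with 242 above 0, but those with over 10 copies had -0.05 over 44, with 17 above 0. How the authors treated reads that fit several copies is not given in the sources used here, and its part in these heights was not tested.

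Tandem sequence was set apart as peaks in which at least 50% of the 12-mers recur within 2 kb. It held 34 repeat peaks of mouse 1 and 33 of mouse 2 (7.203% and 10.1%), at 42 places. In 21 and 15 of these peaks the smallest shift at which the sequence matched itself about as well as at its best was up to 10 bp. Their median heights were 0.413 and 0.6002. Shifts above 500 bp were not tried and the identity was low in some, so a unit of that length is not shown for all. The tallest of them, chr18:3004841-3004980, had 3.04 in mouse 2, with an identity of 41.4% at a shift of 2 bp. Mouse 1 had a peak there too, which was not a repeat peak, at a centred log2 ratio of 0.0019. An array of 41 annotated 5S ribosomal RNA genes on chromosome 8, spaced at a median of 1703 bp, held 4 regions, none of them on a gene itself. Of these, chr8:123617458-123617600, upstream of n-R5s146 by 529 bp, had heights of 1.25 in mouse 1 and 1.36 in mouse 2. On the shorter lists the other 3 were in mouse 1 only, at 0.213 to 0.444.

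The start of chromosome 9 was the place with the most repeat peaks, 4 in mouse 1 and 10 in mouse 2, between 3000571 and 3029872. The smallest shift at which a peak matched itself about as well as at its best was 234 bp, with identity up to 95.2%, or 58 bp. At 58 bp the identity was 66.9% to 84%. The exception was chr9:3000571-3000660, at 410 bp. The gamma satellite of mouse pericentromeres is known for such units. It overlaps the annotated genes Gm10722 and Gm26870, so that peaks there count as promoter or intronic. The 3 regions in both mice had heights of 1.42 and 3.23 (chr9:3002037-3002240), 1.22 and 3.88 (chr9:3006800-3006920) and 1.02 and 1.58 (chr9:3024313-3024460) in mouse 1 and mouse 2. Each was higher in mouse 2, by centred log2 ratios of 1.61, 2.10 and 1.05. Mouse 2 had 7 further regions at 0.236 to 1.39 and mouse 1 had 1 at 0.353.

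**Figure D5:**
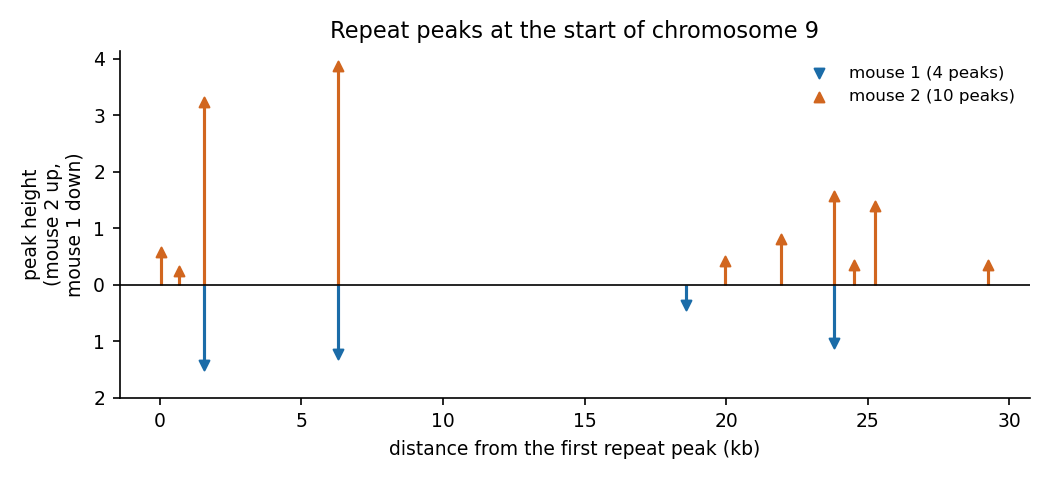
Heights of the repeat peaks at the start of chromosome 9 (y axis, mouse 2 upward and mouse 1 downward) by distance from the first of them (x axis, kb). Mouse 2 has 10 peaks and mouse 1 has 4, and the 3 places with both are higher in mouse 2, up to 3.88 against 1.22.

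Summed over that place, height was 4.01 over 545 bp in mouse 1 and 12.8 over 1335 bp in mouse 2, with means of 1.00 and 1.28 per peak. These counts hold for the shorter lists. Of the 7 places that mouse 2 alone had there, 3 were under a false discovery rate of 0.05 in mouse 1 and held a peak of its longer list, at heights of 0.213 to 0.249. The place that mouse 1 alone had was on the longer list of mouse 2, at 0.202. A match to the YY1 motif was in 9 of the 11 regions and in the related region chr12:3109841-3109920. These made up 10 of the 15 repeat regions with a YY1 match. Over repeat peaks as a whole that motif was in 1.69% in mouse 1 and 3.68% in mouse 2, beside 1.03% and 0.954% of other peaks and 0.645% of repeat tiles.

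Of the other motifs searched, several were rarer in repeat peaks than in other peaks. Of these, Sp/KLF and, on few peaks, NRF1 and MEF2 were more frequent in the repeat peaks of both mice than in repeat tiles. The Sp/KLF motif GGGCGG was in 6.78% of repeat peaks in mouse 1 (other peaks 20.9%) and 6.13% in mouse 2 (other peaks 19.3%). It was in 1.235% of repeat tiles. The ETS motif CCGGAAGT was in 0 of 472 and 0 of 326 (other peaks 1.39% and 1.35%), and in 0.0286% of repeat tiles. The AP-1 motif TGANTCA was in 6.57% and 6.13% (other peaks 5.99% and 6.89%), close in both mice, while 2.23% of repeat tiles held it. The E-box CAGATG was in 20.97% and 23.3% (other peaks 14.5% and 15.6%), and in 13.3% of repeat tiles. The CRE TGACGTCA was in 0 and 1 repeat peak (other peaks 0.926% and 0.899%), and in 0.0893% of repeat tiles. The NFI motif was in 0.212% and 0% (other peaks 0.828% and 0.558%, repeat tiles 0.00789%). The NRF1 motif was in 2 and 3 repeat peaks, or 0.424% and 0.920% (other peaks 1.30% and 1.16%, repeat tiles 0.0152%). Matches were counted in the central 150 bp on both strands, a window wider than the median repeat peak (120 and 117 bp). Some matches thus lay beside the peak. Inside the whole peak, AP-1 was in 22 and 15 repeat peaks rather than 31 and 20, and Sp/KLF in 28 and 13 rather than 32 and 20. The E-box was in 89 and 61 rather than 99 and 76, and CRE and NFI in 0 in both mice. Such counts are not given for other peaks.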

How the data were processed

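DNase-seq libraries from 2 mice of 1 group were used as deposited. Peak heights are the signal values that the authors deposited for each peak, and per the deposited read-me text peaks, footprints and cut rates were made per library on mm10. The deposited cut rates are p-value-like false discovery rates, of which only those under 0.05 are listed. No source used here gives the aligner, peak caller, thresholds or read depth, and no interval that needs depth is given.

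Masking was read from the lower-case letters of the RefSeq GRCm38.p6 sequence (masking program not stated) and genes from GENCODE M21. Scripts (python 3.11.15, numpy 2.4.6, pandas 2.3.3) computed masked share, position, 31-mer copies, motifs in the central 150 bp, tandem recurrence of 12-mers, and merged regions. Sequence families came from blastn 2.17.0. The procedures were tested on simulated data. Nothing was tested between groups. The members and lists were chosen with earlier results of these data known.

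Named regions held a repeat peak in both mice away from tandem places, ranked by mean height percentile: up to 15 at protein-coding starts, the 10 highest others, 5 with a CTCF match, 3 at each end of the height ratio, the highest of each of the 5 largest groups, and tandem places with 2 or more peaks. Only 2 regions with an exact CTCF match met that rule, so the 6 others with a peak in both mice were added, and regions of the stricter families and long masked runs were likewise chosen after their values were seen. Alternatives were the masked share, peak list, overlap, position, footprint, tandem, motif and 31-mer settings, and leaving out each mouse. Some regions and markers that these rules select are not reported here.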

Additional observations from a re-analysis of the deposited data

Results flagged for a closer look

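Repeat peaks on the sex chromosomes were outside the autosomal peaks described above. On chromosome X there were 10 among 1654 peaks in mouse 1 and 11 among 1601 in mouse 2, with median heights of 0.526 and 0.426. On chromosome Y there were 4 among 23 peaks in mouse 1 and 11 among 17 in mouse 2, with median heights of 0.225 and 0.241. The labels give both mice as female, and 3 of the Y repeat peaks of each mouse overlapped a peak of the other.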

How the results depend on the processing

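No result has a test, so the values below are descriptions. Those listed moved by more than the SD of the mice or, for the spread of height ratios and the sequence families, which have no value per mouse, by any amount. With 2 mice, leaving out either one must stay within that SD. Leaving out each mouse in turn gave 0.483 to 0.699% for the share of peaks made of repeat, 30.1 to 37.7% for the share met, 9.75 to 11.8 for the height percentile, 13.5 to 15.9% for promoters, 62.3 to 62.5% for footprints, 7.203 to 10.1% for tandem sequence, 2.15 to 2.33% for CTCF and 68.8 to 71.6% for unique 31-mers. It gave no value for the spread of height ratios. No paired analysis was possible because the mice form 1 group.

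With at least 50% masked bases the share of peaks was 2.14%, met 44.6%, height percentile 21.2, promoters 17.0%, footprints 72.3%, tandem 3.64%, CTCF 3.77%, unique 31-mers 94.8% and SD of the height ratio 0.605. With at least 90% masked the share was 0.344%, footprints 58.9%, tandem 11.96%, CTCF 1.37%, unique 31-mers 46.1% and the SD 0.560. With all bases masked these were 0.211%, 54.9%, 13.8%, 1.11%, 31.1% and 0.604, and the height percentile was 7.73. On the longer lists the share was 1.08%, height percentile 9.27, promoters 11.1%, footprints 47.2%, tandem 6.13%, CTCF 1.17%, unique 31-mers 65.1% and the SD 0.605. Without tandem places promoters were 12.6%, footprints 63.2%, CTCF 2.45%, unique 31-mers 74.1% and the SD 0.563.

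Among single choices, an overlap of at least 50% of both peaks gave 24.9% met, ranking among peaks away from promoters a percentile of 12.5, a limit of 500 bp 6.40% promoters, and footprints wholly inside the peak 59.1%. A tandem limit of 80% gave 4.73% and 24-mers 45.9% unique. Above the median height the SD was 0.677. Chosen after seeing the data, a CTCF match with up to 1 mismatch gave 22.2%, leaving out the start of chromosome 9 an SD of 0.550, and the stricter grouping 45.1% of regions in families against 77.7%. The causes of these moves were not tested. The depth in reads is unknown, so whether a peak missing in 1 mouse was below detection cannot be told.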
